A study of Mus musculus with 12 samples.

Results

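The mitochondrial genome transcripts are the RNAs encoded on chromosome M, the small circular genome that mitochondria carry. They were taken as all genes whose symbol in the GENCODE M21 annotation starts with mt-. This gave 37 genes, namely 13 mRNAs, 2 rRNAs and 22 tRNAs, of the 46078 genes listed in the count files. The epithelium of the proximal ileum was scraped from male C57BL/6 mice, and its RNA was sequenced in 4 groups of 3 libraries. The animals received sesame oil vehicle or TCDD, the most potent dioxin and an agonist of the aryl hydrocarbon receptor, by gavage at 3 µg/kg (the low dose), 10 µg/kg (the middle dose) or 30 µg/kg (the high dose), repeated every 4 days over 28 days. They were 28 days old at the start and 56 days old at the end. All groups shared strain, sex, age and the oil, no genetic change was made, and the labels do not say whether a library came from 1 animal.

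The mitochondrial genome has no introns, and its genes lie nearly end to end. Both strands are copied into long precursor RNAs, and most of the mRNAs and rRNAs are released when the tRNAs between them are cut out. The mRNAs encode core subunits of respiratory complexes I, III and IV and of the ATP synthase, which work together with subunits encoded in the nucleus. The absorptive cells of the small intestine rely on this machinery for the energy that nutrient uptake costs. Nuclear chromosomes also carry old insertions of mitochondrial DNA, and reads from such a stretch can align to more than 1 place.

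Gene counts per library summed to between 11695887 and 22180274. Levels are given as CPM, counts scaled to a common library size by these totals and TMM (trimmed mean of M values). By the totals alone, without TMM, a count of 3 corresponded to 0.135 to 0.257 CPM, counting error only. Of the 37 genes, 16 passed the filter on low counts and were tested among 15823 genes. They comprised 9 mRNAs, both rRNAs and 5 tRNAs. The 10 enterocyte markers were all detected, with a summed level of 34827 to 57566 CPM over the 12 libraries. In bulk scrapings, fewer cells of a type and less RNA per cell cannot be told apart.

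Not every mRNA could be followed. Of the 13, 5 had at most 47 counts in any library. mt-Co2 (a subunit of cytochrome c oxidase, complex IV) had 1 to 8 counts, mt-Co3 (complex IV) 0 to 8 and mt-Atp6 (the proton channel subunit of the ATP synthase) 17 to 47. mt-Nd3 and mt-Nd4l, both complex I subunits, had 0 to 4 and 0 to 13 counts. mt-Co1, the catalytic subunit of the same complex IV, had at least 134555 counts in every library.

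The same 5 genes are those whose sequence stands almost whole in annotated nuclear pseudogenes. When each gene was cut into overlapping windows of 50 bases, 99.5% of the windows of mt-Co2 were found in the pseudogene Gm28661, 99.5% of those of mt-Atp6 in Gm10925 and 99.9% of those of mt-Co3 in Gm28437. For mt-Nd3 the share was 98.0% in Gm28438, and for mt-Nd4l it was 98.8% in Gm10222. These pseudogenes lie in one run on the minus strand of chromosome 1 (GRCm38), from 24612407 to 24615565, in the same order as on chromosome M. The copies were exact over 678 bases of mt-Atp6, 681 of mt-Co2, 783 of mt-Co3 and 294 of mt-Nd4l, and 1 base differed over 345 bases of mt-Nd3. The pseudogenes had few counts of their own, at most 87 in any library. With so few reads, these 5 mRNAs are described by their counts, and no change is read from them.

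mt-Nd4l is printed here to show how little of such a gene can be told apart. It lies on the plus strand of chromosome M (GRCm38, chrM:9877-10173), and its capitals mark the bases outside the exact copy in Gm10222. Sequences are those of the GENCODE M21 transcripts.
mt-Nd4l: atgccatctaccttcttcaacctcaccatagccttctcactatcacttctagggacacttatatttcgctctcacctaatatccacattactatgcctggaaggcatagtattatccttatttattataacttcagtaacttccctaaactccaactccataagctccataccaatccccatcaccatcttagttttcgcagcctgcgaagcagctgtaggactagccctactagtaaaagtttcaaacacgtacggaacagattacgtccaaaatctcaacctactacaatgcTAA
Only its last 3 bases fell outside the copy, which left 3 of 248 windows without a match. mt-Nd4l had 10, 13 and 9 counts in the 3 libraries of the low dose and between 0 and 4 in the other 9, too few to pass the filter. With no filter on low counts it was called lower at the high than at the low dose. It was also called there without any 1 library of vehicle or the middle dose, or without replicate 3 of the low or the high dose.

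Other members were affected in part. mt-Nd4 (complex I) shared 62.2% of its windows with Gm28439, next in the same run. mt-Co1 shared 28.7% with Gm29216 at the other end of it and 27.5% with Gm13340 on chromosome 2, which left 48.9% of its windows without a copy. For mt-Nd4 37.8% were left, for mt-Nd2 91.8% and for mt-Nd5 92.4%. No annotated copy of a window was found for mt-Nd1, mt-Atp8, mt-Nd6, mt-Cytb, mt-Rnr1 or any tRNA, and 99.0% of mt-Rnr2 had none. Only annotated transcripts were searched, so copies elsewhere on the chromosomes, including the stretch on chromosome 1 between Gm10925 and Gm28661, were not looked for. On chromosome M mt-Atp8 lies at the matching place, between mt-Co2 and the start of mt-Atp6, so a copy of mt-Atp8 in that stretch was not tested for.

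**Figure D1:**
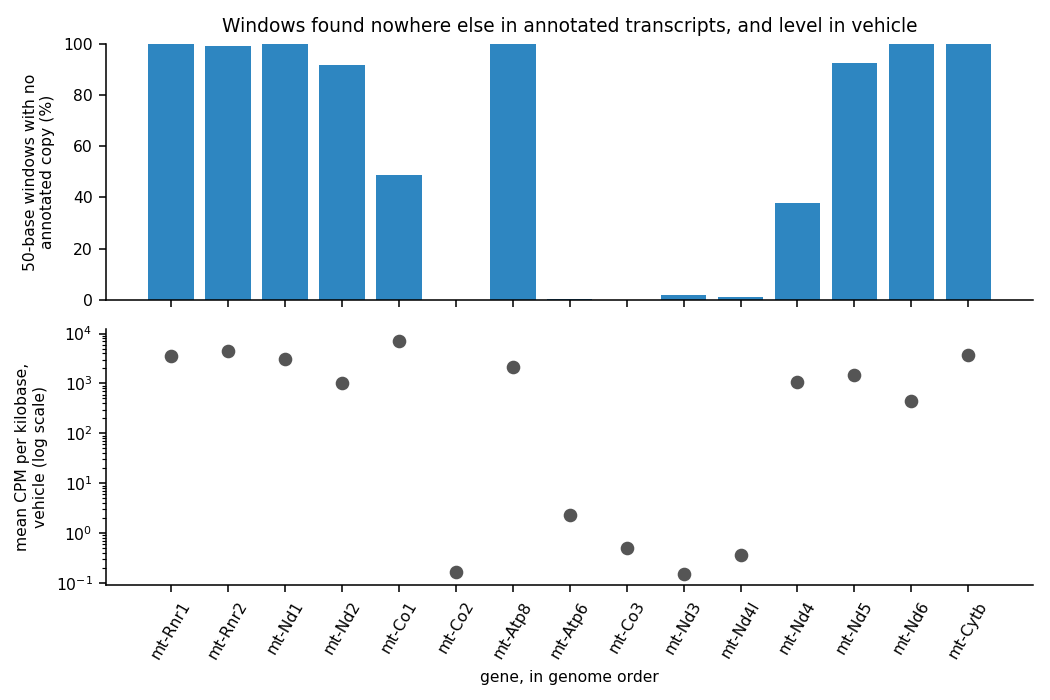
Upper panel, percent of 50-base windows of each mitochondrial mRNA and rRNA with no exact copy in an annotated transcript off chromosome M; lower panel, mean level in the 3 vehicle libraries in CPM per kilobase of gene, on a log scale. The 5 genes with at most 2.0% of windows left had levels from 0.155 to 2.32 CPM per kilobase, and every other gene had at least 453.

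The order of levels was compared per length. In vehicle, mt-Co1 was highest among the mRNAs at 7083 CPM per kilobase ± 768 (SD, n = 3), followed by mt-Cytb (cytochrome b of complex III) at 3633 ± 505 and mt-Nd1 at 3078 ± 499. The order of mt-Cytb and mt-Nd1 did not exceed their spread. mt-Atp8 stood at 2111 ± 271 and mt-Nd5 at 1500 ± 196, while mt-Nd4 (1048 ± 98.0) and mt-Nd2 (1017 ± 139) did not differ beyond their spread. mt-Nd6, the 1 mRNA on the opposite strand, was lowest of the 8 at 453 ± 83.4. mt-Rnr2 (4457 ± 963) and mt-Rnr1 (3548 ± 566) fell between mt-Co1 and mt-Nd1. The same CPM was also divided by the number of windows without a copy in place of gene length. This gave 14970 CPM per kilobase for mt-Co1 and 2876 for mt-Nd4, above mt-Nd5 (1668) and beside mt-Atp8 (2778). Reads were not counted by window. mt-Atp8 had no window with a copy, and its value rose from 2111 because its 204 bases hold 155 windows.

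The 13 mRNA genes together held a larger share of gene counts at the high dose than in any other library. Their share was 2.65%, 2.03% and 2.35% in the 3 vehicle libraries, and 2.14%, 2.35% and 2.13% at the low dose. It was 2.15%, 2.19% and 2.59% at the middle dose, and 3.10%, 2.95% and 2.89% at the high dose. The means were 2.35% ± 0.310, 2.21% ± 0.125, 2.31% ± 0.245 and 2.98% ± 0.110 (SD, n = 3 each). The share at the high dose did not overlap that of the other 9 libraries, whereas vehicle, the low and the middle dose overlapped one another. As a share of all reads in the files, including those outside genes, the means were 0.845%, 0.832%, 0.879% and 1.09%.

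The rRNA genes did not follow the mRNAs. They held 1.02% ± 0.213 of gene counts in vehicle, 0.754% ± 0.0249 at the low dose, 0.861% ± 0.0405 at the middle dose and 0.834% ± 0.111 at the high dose (SD, n = 3 each). The ratio of mRNA to rRNA counts was 2.12 to 2.45 in vehicle, 2.80 to 3.04 at the low dose, 2.44 to 3.17 at the middle dose and 3.01 to 4.07 at the high dose. The libraries of the low and the high dose all lay above vehicle, and those of the middle dose overlapped it. The 22 tRNA genes held between 0.00133% and 0.00200% of gene counts, 176 to 398 counts per library, so most single tRNAs were too low to follow.

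**Figure D2:**
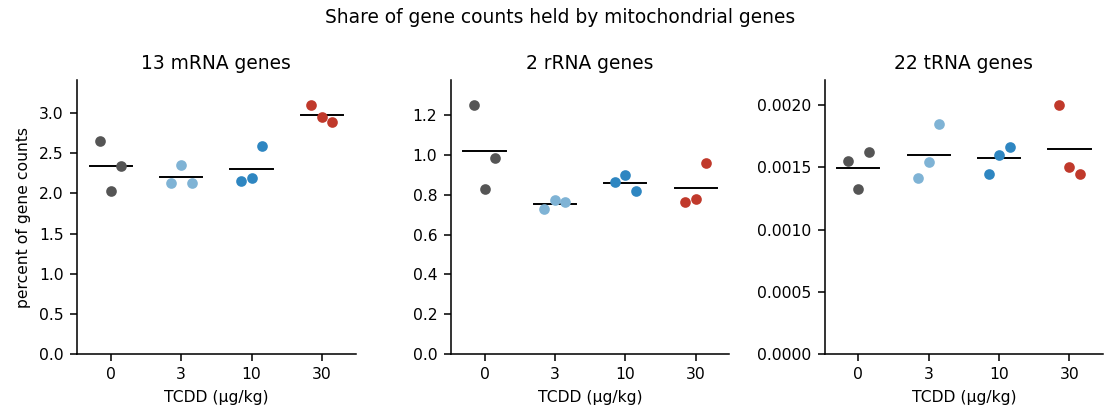
Percent of each library's gene counts held by the 13 mRNA, 2 rRNA and 22 tRNA genes of the mitochondrial genome, by TCDD dose in µg/kg; each point is a library and each bar the group mean. The 3 libraries of 30 µg/kg lie at 2.89% to 3.10% for mRNA, above the 2.03% to 2.65% of the others, and the rRNA share shows no such rise.

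Each dose was compared with vehicle in 1 edgeR quasi-likelihood model of all 12 libraries, with p-values adjusted by the Benjamini-Hochberg method over 15823 genes. A gene was called at an adjusted p under 0.05 and a change of at least 1.5-fold. At the high dose 1 of the 16 tested members was called, mt-Atp8, where 3.97% of all genes were called and 3.08% were called higher. By adjusted p alone 5 members were higher, all of them mRNAs, against 4.3% of all genes. Of the 8 counted mRNAs, 6 had every library of the high dose above every vehicle library, as had 14.2% of all genes tested, and the same 6 stood above the other 9 libraries, as did 6.08%. The median log2 change of the 8 was 0.54, beside -0.02 over all genes tested.

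mt-Atp8, a small membrane subunit of the ATP synthase, had the largest change at the high dose among the 16 tested members. Its level was 491, 383 and 417 CPM in vehicle, 317, 343 and 306 at the low dose, 385, 385 and 427 at the middle dose, and 964, 822 and 824 at the high dose. The libraries of the high dose lay far above all others and those of the low dose below all others. The log2 change at the high dose was 1.01 (SE 0.11; edgeR adjusted p 1.95e-04), a 2.02-fold rise. Besides the model described, 24 other settings were run, 12 other ways of processing and each of the 12 libraries left out in turn. mt-Atp8 was called under all 24, with changes from 0.94 to 1.13. With the library index sequence as a covariate it was 1.02 (SE 0.12). At the low dose the change was -0.42 (SE 0.11; edgeR adjusted p 0.208) and at the middle dose -0.11, and neither was called.

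The gene is shown because it is the called mRNA and because it shares bases with its neighbour. It lies at chrM:7766-7969 on the plus strand (GRCm38), is a single exon, and its capitals mark the 43 bases that also belong to mt-Atp6.
mt-Atp8: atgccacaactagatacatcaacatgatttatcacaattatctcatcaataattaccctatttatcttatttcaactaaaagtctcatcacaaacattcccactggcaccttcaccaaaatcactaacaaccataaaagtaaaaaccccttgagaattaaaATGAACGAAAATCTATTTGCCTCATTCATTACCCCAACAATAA
Reads over the shared end match both genes, and mt-Atp6 itself was nearly uncounted. No window of 50 bases of mt-Atp8 had an annotated copy, but with windows of 30 bases 92.0% were without one. Read length is not given in the sources used here. The setting by which such reads were assigned is not given in the sources used here.

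**Figure D3:**
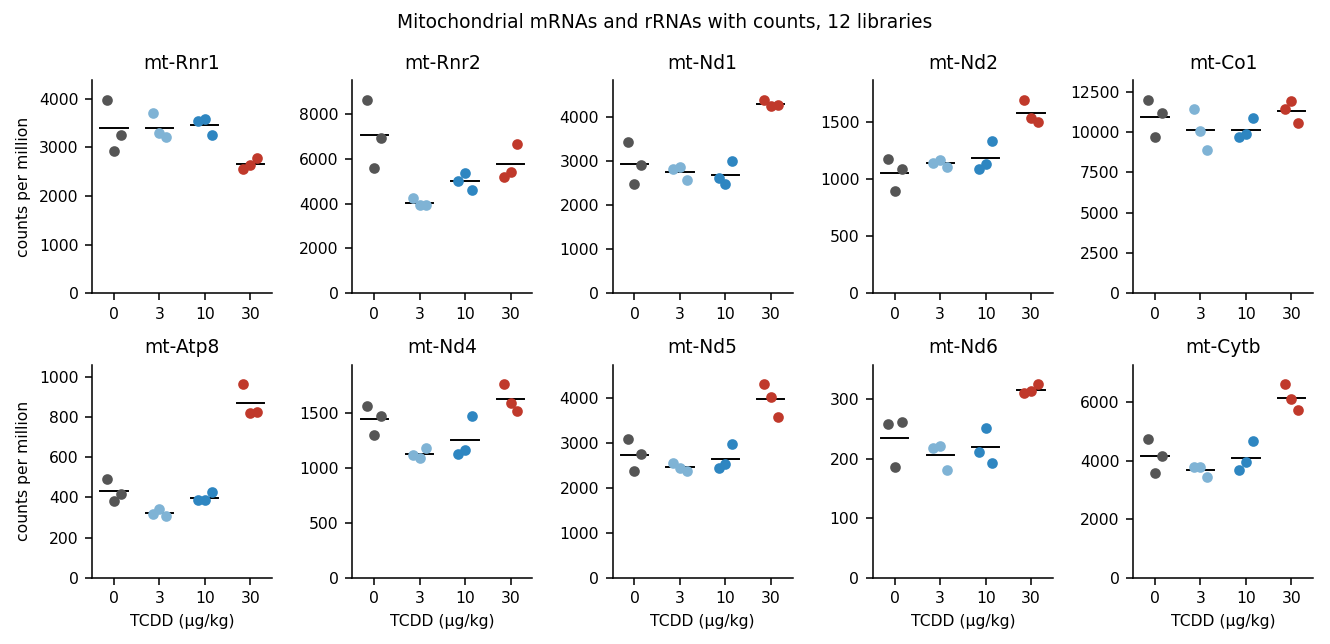
Level in CPM of the 8 counted mRNAs and 2 rRNAs in each of the 12 libraries, by TCDD dose in µg/kg; points are libraries and bars group means, and every axis starts at 0. In mt-Nd1, mt-Nd2, mt-Atp8, mt-Nd5, mt-Nd6 and mt-Cytb the 3 libraries of 30 µg/kg stand above all others, and in mt-Rnr1 they stand below.

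Of the 5 counted complex I mRNAs, mt-Nd1, mt-Nd2 and mt-Nd5 were higher at the high dose by adjusted p alone, and mt-Nd4 and mt-Nd6 did not pass. mt-Nd1, a membrane arm subunit next to the quinone site, had 3438, 2485 and 2914 CPM in vehicle, 2816, 2862 and 2562 at the low dose, 2613, 2472 and 3006 at the middle dose, and 4397, 4262 and 4265 at the high dose. Its log2 change at the high dose was 0.55 (SE 0.13; edgeR adjusted p 0.0286), short of 1.5-fold. The 3 libraries of the highest dose were close to each other and above the other 9. By adjusted p alone mt-Nd1 no longer passed in 7 of 24 other settings, mt-Nd5 and mt-Cytb in 6 each and mt-Nd2 in 2. For the first 3 genes these were the library index as a covariate and leaving out vehicle replicate 2 or 3 or replicate 1 or 2 of the high dose, besides replicate 3 of the high dose for mt-Nd1 and mt-Cytb and a fit of the compared groups alone for mt-Nd1 and mt-Nd5. For mt-Nd2 they were leaving out vehicle replicate 2 or replicate 1 of the high dose.

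mt-Nd2, one of the proton-pumping subunits, had 1179, 897 and 1090.2 CPM in vehicle, 1142, 1167 and 1107 at the low dose, 1085, 1135 and 1329 at the middle dose, and 1696, 1536 and 1499.9 at the high dose. It changed by 0.58 (SE 0.12; edgeR adjusted p 0.0135), close to the limit of 1.5-fold, and was called with total-count scaling and when any 1 of 7 libraries was left out. The libraries of the highest dose again stood above the rest. mt-Nd5, another proton-pumping subunit, had 3083, 2369 and 2756 CPM in vehicle, 2547, 2439.6 and 2369 at the low dose, 2439.9, 2526 and 2983 at the middle dose, and 4304, 4017 and 3578 at the high dose. This was a change of 0.54 (SE 0.13; edgeR adjusted p 0.0298). Both showed no overlap between the highest dose and the other groups.

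mt-Nd6 is transcribed from the strand opposite to all other mRNAs and overlaps the end of mt-Nd5 by 14 bases. It had 258, 185 and 262 CPM in vehicle, 218, 221 and 181 at the low dose, 211, 252 and 193 at the middle dose, and 309, 313 and 325 at the high dose. The change of 0.43 (SE 0.14; edgeR adjusted p 0.0986) did not pass the test, although the 3 libraries of the high dose stood above the other 9. Because the strand setting is not given in the sources used here, reads of mt-Nd6 and of its antisense partner cannot be told apart in the overlap. The ratio of mt-Nd6 to mt-Nd5 counts lay between 6.47% and 9.96% over all libraries and overlapped between all groups.

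mt-Nd4, a proton-pumping subunit as well, had 1564, 1298 and 1469.9 CPM in vehicle, 1118, 1093 and 1177 at the low dose, 1130.1, 1161 and 1474 at the middle dose, and 1762, 1589.9 and 1522 at the high dose. Vehicle and the highest dose overlapped. Its change was 0.17 (SE 0.12; edgeR adjusted p 0.452), beside changes of -0.35 at the low dose and -0.20 at the middle dose. Among the counted complex I mRNAs it has the largest part in a nuclear copy. Whether that copy has a part in its change was not tested.

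mt-Cytb, the mitochondrially encoded subunit of complex III, had 4734, 3578 and 4155 CPM in vehicle, 3792, 3790.1 and 3438 at the low dose, 3676, 3958 and 4683 at the middle dose, and 6626, 6124 and 5749 at the high dose. The change at the highest dose was 0.57 (SE 0.14; edgeR adjusted p 0.0291), with every library above the other 9. mt-Co1 of complex IV, the most abundant of all, had 12008, 9664 and 11157 CPM in vehicle, 11402, 10071 and 8894 at the low dose, 9682, 9859 and 10843 at the middle dose, and 11396, 11943 and 10574 at the high dose. Its change was 0.05 (SE 0.14; edgeR adjusted p 0.891), and its groups overlapped.

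**Figure D4:**
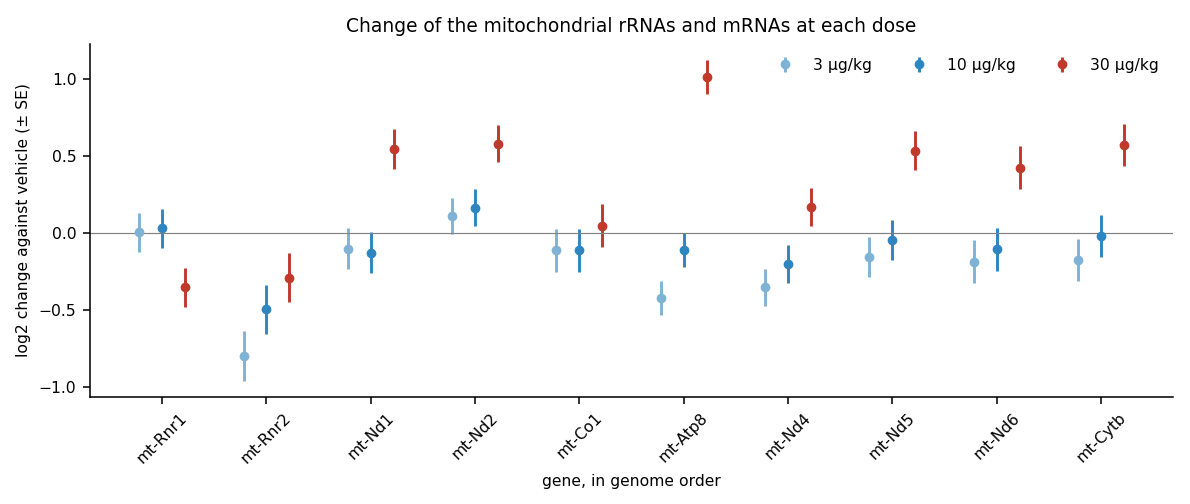
Log2 change against vehicle with its standard error for 2 rRNAs and 8 mRNAs in genome order, at 3, 10 and 30 µg/kg TCDD, from the edgeR model of 12 libraries. At 30 µg/kg mt-Atp8 stands at 1.01 and mt-Nd1, mt-Nd2, mt-Nd5 and mt-Cytb between 0.54 and 0.58, while mt-Co1 and mt-Nd4 lie at 0.05 and 0.17 and both rRNAs below 0.

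The lower doses gave no call. At the low dose 0 of 16 members were called in edgeR, where 0.228% of all genes were called, and 5 were at an unadjusted p under 0.05, as were 11.4% of all genes. At the middle dose 0 were called, where 0.613% of all genes were, and 3 were at an unadjusted p under 0.05, a share near the 15.9% of all genes. DESeq2 called 1 member at the low dose, mt-Rnr2, and 0 at the middle dose. The median change of the 8 counted mRNAs was -0.17 at the low dose and -0.11 at the middle dose.

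Comparisons between doses used the same model. Against the middle dose, the high dose gave 4 members called higher, where 2.17% of all genes were (5 by adjusted p alone, where 3.01% were). They were mt-Atp8 (1.12, SE 0.11), mt-Nd1 (0.68, SE 0.13), mt-Cytb (0.59, SE 0.14) and the tRNA mt-Ti (1.11, SE 0.27), and mt-Nd5 (0.58) passed by adjusted p alone. The call of mt-Cytb, close to 1.5-fold, was lost in 13 of 24 other settings. Against the low dose, 6 were called higher, where 3.61% of all genes were, and 8 passed by adjusted p alone, where 5.06% did. These 6 were mt-Atp8 (1.43), mt-Ti (1.07), mt-Cytb (0.75), mt-Nd5 (0.69), mt-Nd1 (0.65) and mt-Nd6 (0.61). The call of mt-Nd6 was lost in 4 of 24 other settings, with total-count scaling or without replicate 3 of the low dose or replicate 2 or 3 of the high dose. mt-Nd4 (0.52) and mt-Nd2 (0.47) stayed under 1.5-fold. Comparisons share the libraries of the high dose and are not independent of one another.

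Between the middle and the low dose 0 members were called in edgeR and 0 in DESeq2, where 0.158% of all genes were called in edgeR. In edgeR 1 member was at an unadjusted p under 0.05 (mt-Atp8, 0.31), as were 3.3% of all genes. A slope over the dose rank, 0 to 3, called mt-Atp8 alone (change over the range 1.01, SE 0.26; edgeR adjusted p 0.042), where 2.53% of all genes were called higher. mt-Nd2 passed there by adjusted p alone (0.54; edgeR adjusted p 0.0249), as did 3.26% of all genes in that direction. The slope does not mean a steady rise of mt-Atp8, whose changes against vehicle were -0.42, -0.11 and 1.01 at the 3 doses. The F test of any difference among groups passed 8 members by adjusted p, where 6.78% of all genes passed. They were mt-Atp8, mt-Nd1, mt-Cytb, mt-Nd5, mt-Nd2, mt-Nd6, mt-Rnr2 and mt-Ti.

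The counts of calls rested on single libraries in part. Against the middle dose, 1 member was called without replicate 2 of that dose (mt-Atp8), and 2 without vehicle replicate 3, replicate 1 of the middle dose or replicate 1 or 2 of the high dose (mt-Nd1 and mt-Atp8). The slope of mt-Atp8 was no longer called without vehicle replicate 2 or 3, any library of the low dose or any library of the high dose, each left out alone. The F test passed 1 member, mt-Atp8, without replicate 1 or 2 of the high dose, and 3 without its replicate 3. It passed 4 without vehicle replicate 3 or replicate 2 or 3 of the low dose, and 5 without replicate 1 of the middle dose. Without vehicle replicate 1, which had the highest mitochondrial share of its group (2.65% mRNA), 5 members were called at the high dose against vehicle, namely mt-Nd1, mt-Nd2, mt-Atp8, mt-Nd5 and mt-Cytb. mt-Nd2 and mt-Atp8 were called there without vehicle replicate 3, replicate 2 or 3 of the low dose, replicate 3 of the middle dose or replicate 2 of the high dose, and mt-Nd5 joined them without replicate 3 of the high dose.

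Both rRNAs are parts of the mitochondrial ribosome, mt-Rnr1 of the small and mt-Rnr2 of the large subunit. mt-Rnr1 had 3981, 2923 and 3263 CPM in vehicle, 3702, 3284 and 3215 at the low dose, 3546, 3583 and 3249 at the middle dose, and 2547, 2634 and 2773 at the high dose. All 3 libraries of the highest dose lay below the other 9, with a change of -0.35 (SE 0.13; edgeR adjusted p 0.125) that did not pass the test.

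mt-Rnr2 had 8637, 5600.4 and 6913 CPM in vehicle, 4243, 3956 and 3948 at the low dose, 5012, 5345 and 4622 at the middle dose, and 5188, 5429 and 6656 at the high dose. The libraries of the low dose lay below all others, and vehicle and the high dose overlapped. Its change was -0.80 (SE 0.16; edgeR adjusted p 0.0817) at the low dose, -0.50 (SE 0.16) at the middle dose and -0.29 (SE 0.16) at the high dose, none of them called. At the low dose 5 of 24 other settings called it, namely DESeq2, no filter on low counts, a score of circadian clock genes as a covariate, and leaving out vehicle replicate 2 or replicate 1 of the low dose.

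The ratio of mt-Rnr2 to mt-Rnr1 counts needs no library scaling. It was 2.17, 1.92 and 2.12 in vehicle, 1.15, 1.20 and 1.23 at the low dose, 1.41, 1.49 and 1.42 at the middle dose, and 2.04, 2.06 and 2.40 at the high dose. The libraries of the low dose were lowest and those of the middle dose next, with no overlap between them or with the others, while vehicle and the high dose overlapped. Whether the kit removes rRNA is not given in the sources used here, so these ratios describe what was sequenced and not the rRNA content of the cells.

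Ratios among the mRNAs differed between groups, and no test was run on them. mt-Atp8 counts were 4.09%, 3.97% and 3.74% of mt-Co1 counts in vehicle, 2.78%, 3.41% and 3.44% at the low dose, 3.98%, 3.91% and 3.94% at the middle dose, and 8.45%, 6.89% and 7.79% at the high dose. mt-Cytb counts were 37.0% to 39.4% of mt-Co1 in vehicle and 51.3% to 58.1% at the high dose, with 33.3% to 43.2% at the doses between. On the log2 scale relative to the geometric mean of the 8 counted mRNAs, mt-Atp8 was at -1.94 ± 0.0643 in vehicle and -1.42 ± 0.0710 at the high dose. mt-Co1 was lower at the high dose, 2.73 ± 0.0352 in vehicle and 2.29 ± 0.0805 there, as was mt-Nd4 with -0.19 ± 0.0573 and -0.51 ± 0.0366 (SD, n = 3 each). mt-Nd5 stood at 0.73 ± 0.0143 and 0.77 ± 0.0662. mt-Co1 and mt-Nd4 are the 2 counted mRNAs with under 50% of their windows left without a copy. Whether the copies have a part in these ratios was not tested.

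**Figure D5:**
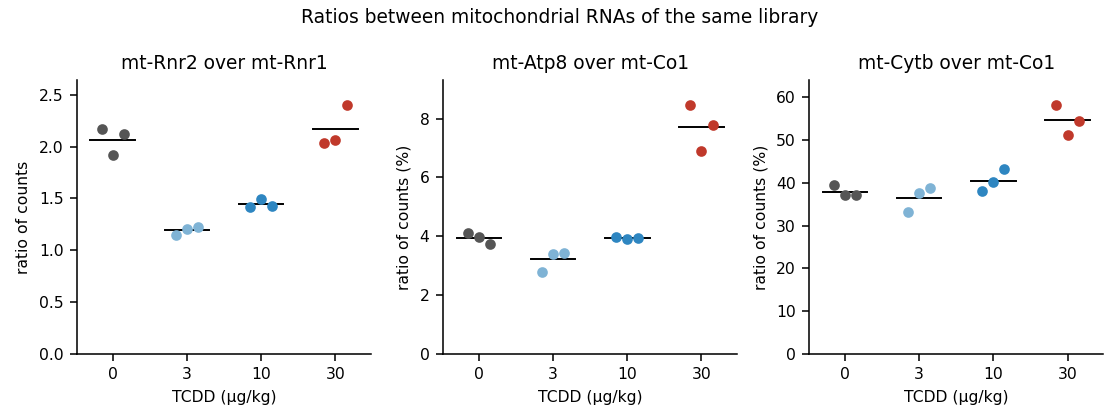
Ratios of counts within each library, mt-Rnr2 over mt-Rnr1, mt-Atp8 over mt-Co1 and mt-Cytb over mt-Co1 (the last 2 in percent), by TCDD dose in µg/kg; points are libraries and bars group means. The rRNA ratio is 1.15 to 1.49 at 3 and 10 µg/kg and stands at 2.04 to 2.40 at 30 µg/kg, where both mRNA ratios are highest.

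Among tRNAs, which carry amino acids to the mitochondrial ribosome, mt-Tl1 (leucine), mt-Ti (isoleucine), mt-Tm (methionine), mt-Tw (tryptophan) and mt-Te (glutamate) passed the filter. mt-Ti was called between doses and is shown for its overlaps. It lies at chrM:3706-3774 on the plus strand (GRCm38), and the capitals mark its first 2 bases, shared with the end of mt-Nd1, and its last 3, shared with mt-Tq on the other strand.
mt-Ti: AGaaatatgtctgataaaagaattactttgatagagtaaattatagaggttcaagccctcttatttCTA
mt-Ti had 69, 50 and 55 counts in vehicle, 23, 41 and 30 at the low dose, 19, 35 and 30 at the middle dose, and 77, 50 and 75 at the high dose. Its level of 3.93 to 4.44 CPM at the highest dose lay above the 1.37 to 2.54 CPM of the 2 lower doses and above the 2.31 to 3.89 CPM of vehicle, against which the change of 0.46 (SE 0.26; edgeR adjusted p 0.324) was not called. The call against the middle dose was lost in 9 of 24 other settings and that against the low dose in 6.

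The other tRNAs gave no call against vehicle. mt-Tl1 had 49 to 129 counts, mt-Tm 26 to 103, mt-Tw 11 to 40 and mt-Te 7 to 43 over the 12 libraries. At the low, middle and high dose, mt-Tl1 changed by 0.69, 0.86 (SE 0.27; edgeR adjusted p 0.161) and 0.23. In the same order, the changes were -0.66, -0.47 and -0.04 for mt-Tm and 0.58, -0.14 and 0.74 for mt-Tw. Those of mt-Te were -0.45, -0.38 and -0.92. The remaining 17 had at most 23 counts in any library, and mt-Tf (phenylalanine) and mt-Ts2 (serine) had 0 in all 12. For them a level up to the floor of 3 counts per library is allowed. Neighbouring genes of the genome share bases in 9 places, so counts of short genes can hold reads of a longer neighbour or precursor.

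Nuclear genes that act on mitochondrial RNA, on mtDNA or on mitochondrial biogenesis were taken as a list of 66, of which 65 were tested. It covers transcription, RNA processing, RNA stability and decay, rRNA and tRNA modification, mtDNA replication, translation factors and regulators of mitochondrial biogenesis. At the 3 doses 0 of the 65 were called in edgeR, with medians of 0.08, 0.12 and 0.03. At an unadjusted p under 0.05 there were 6, 11 and 15, shares near the 11.4%, 15.9% and 21.6% of all genes. DESeq2 called 0, 0 and 1. By adjusted p alone, 2 were lower at the high dose, Mterf3 (-0.35, SE 0.08; edgeR adjusted p 0.0188), a termination factor family member, and Mrm1 (-0.54, SE 0.14; edgeR adjusted p 0.0459), an rRNA methyltransferase. For their roles, 3 more are named after their values were seen. Polrmt, the mitochondrial RNA polymerase, had 20.2 CPM ± 3.23 in vehicle and 22.8 ± 1.58 at the high dose, and the transcription factor Tfam 20.7 ± 2.01 and 19.1 ± 1.31 (SD, n = 3 each). Lrpprc, which binds and stabilises mitochondrial mRNAs, had 49.5 ± 0.819 and 58.1 ± 2.87 CPM.

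The nuclear-encoded partners of the mitochondrial subunits rose in part. Of 41, all tested, 0 were called at the low dose in edgeR and in DESeq2 (12 at an unadjusted p under 0.05 in edgeR), 1 at the middle dose (Atp5k, 0.77, SE 0.11) and 11 at the high dose, each of the 11 higher, with medians of 0.09, 0.16 and 0.37. Of all genes tested, 0.228%, 0.613% and 3.97% were called at the 3 doses, 3.08% were called higher at the high dose, and 11.4% were at an unadjusted p under 0.05 at the low dose. By adjusted p alone, in either direction, 2, 3 and 22 of the 41 passed, beside 40, 113 and 967 of all 15823 genes tested. The 11 comprised 0 of 7 in complex I, 2 of 9 in complex III, 5 of 10 in complex IV and 4 of 15 in the ATP synthase. Uqcr11, an accessory subunit of complex III, went from 32.6 CPM ± 4.44 in vehicle to 67.6 ± 5.41 at the high dose (1.05, SE 0.13), and Uqcr10 from 36.7 ± 1.30 to 69.6 ± 4.38 (0.92, SE 0.11). The edgeR adjusted p was 3.93e-04 for Uqcr11 and 2.81e-04 for Uqcr10.

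The complex IV genes called were Cox7b (0.87), Cox7c (0.73), Cox6b1 (0.71), Cox5b (0.66) and Cox6c (0.69, outside the naming rule and named after its values were seen), all accessory subunits. Those of the ATP synthase were Atp5l (0.94), Atp5k (0.85) and Atp5j2 (0.60), subunits of its membrane part, and Atp5g2 (0.84), which encodes subunit c of the ring. Atp5j2 was no longer called with upper-quartile scaling, without vehicle replicate 1 or without replicate 3 of the high dose, and the other 10 partners kept their calls under all 24 other settings.

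Length moved with these changes. Protein-coding nuclear genes were grouped by annotated exon length. At the high dose the median change was 1.18 in the 85 genes of 300 to 600 bases, of which 54.1% were called higher. It was 0.44 in 151 genes of 600 to 900 bases, of which 25.2% were called higher. The median was 0.17 in 1416 genes of 900 to 2000 bases and -0.01 in 9139 genes of 2000 to 8000 bases. mt-Atp8 is annotated at 204 bases, and the class of 150 to 300 bases held 3 nuclear genes, with a median of -0.02. It overlaps mt-Atp6 on the same strand, and the length of the RNA that carries it was not measured. That class may therefore not be the one to compare it with. mt-Nd6 (519 bases) had a change of 0.43, under the median of its class. mt-Nd1, mt-Nd2 and mt-Cytb, at 957 to 1144 bases, changed by 0.55 to 0.58, above the upper quartile of 0.45 in genes of 900 to 2000 bases. mt-Co1 (1545 bases) and mt-Nd4 (1378) lay under that quartile and mt-Nd5 (1824) above it. The called nuclear partners were not compared with genes of their own length. The part of length in their changes and in the mitochondrial changes was not tested.

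Other values also moved with the highest dose. Reads that aligned to more than 1 place made up 36.2% to 38.8% of all reads at the high dose and 31.4% to 34.6% in the other libraries, and reads outside genes 25.0% to 25.4% and 28.0% to 30.1%. The summed level of the 7 Paneth cell markers was 2209 to 3001 CPM at the high dose and 694 to 1823 CPM elsewhere, and all 7 were called higher. That of the 7 goblet markers was 16237 to 17696 CPM there and 11120 to 16598 CPM elsewhere, with 3 called higher. The 7 skeletal muscle markers summed to 2.41 to 6.54 CPM in vehicle, 26.7 to 42.1 CPM at the middle dose and 78.0 to 198 CPM at the high dose. Of the 2 tested, 1 was called higher there and at the middle dose. The log2 changes of these 2 at the high dose were 5.38 and -0.06, so the markers did not rise as a set. The rest were too low to test, and 2 of the 7 were at 0 in every library of the highest dose. The 7 pancreatic acinar markers summed to 5.75 to 7.35 CPM in vehicle and 0.383 to 1.24 CPM at the high dose, where all 3 tested were called lower, as they were at the low dose (0.226 to 0.410 CPM). Smooth muscle markers (18.0 to 197 CPM), B and plasma cell markers (227 to 848 CPM) and T cell markers (52.0 to 78.4 CPM) gave 0, 0 and 1 call at the high dose, and the enterocyte markers 0. The 6 B and plasma cell markers had changes from -2.07 to 0.05 there, with a median of -1.50. At an unadjusted edgeR p under 0.05 were 4 of them, beside 21.6% of all genes. The 7 smooth muscle markers had a median of -1.93 at the middle dose. All 7 were at an unadjusted edgeR p under 0.05, beside 15.9% of all genes. The part of any of these in the mitochondrial changes was not tested.

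Across the 12 libraries, the nuclear genes whose log2 level followed the mean of the 8 counted mRNAs most closely were Rpl28 (Pearson r 0.94), Gapdh (0.93), Tkt (0.93), Cox8a (0.92) and Klf5 (0.92), of 1828 genes with a mean of at least 100 CPM. This is a description over 12 libraries that share dose groups, depth and scaling. Rpl28, a ribosomal protein gene, had mean levels of 105, 90.8, 104 and 236 CPM in vehicle and at the 3 doses. Cox8a, the 1 nuclear partner among the 5, had 195, 183, 190 and 289 CPM.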

How the data were processed

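RNA from 12 ileal epithelium libraries, 3 per group, was compared by the groups the labels give. The authors deposited 1 file of counts per library, whole reads per gene with no normalization. The submitters' processing notes name FastQC 0.11.3, Trimmomatic 0.33, TopHat2 2.1.0, SAMtools 1.2.0, HTSeq 0.6.1 and DESeq, with the build GRCm38. The annotation release, strand and overlap settings of the counting, and whether rRNA was depleted, are not given in the sources used here. Reads aligned to more than 1 place were kept out of the gene counts in the deposited files, which lowers genes with nuclear copies.

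Gene IDs were matched to GENCODE M21, and 935 without a match held 0.749% of counts. Library totals were 11695887 to 22180274 gene counts. edgeR 4.0.16 (R 4.3.3) fitted a quasi-likelihood model with TMM scaling after filterByExpr to all 12 libraries, with Benjamini-Hochberg adjustment over all genes tested. The p-values set differences between groups against the spread between these samples, which may be technical in part. The script was tested on simulated data. Alternatives were 4 further scalings and total counts, 2 other filters, DESeq2 1.42.0, limma-voom (limma 3.58.1), the compared groups alone, the library index or a score of circadian clock genes as a covariate, and each library left out. Windows of 50 bases were searched on both strands of annotated transcripts, not of whole nuclear chromosomes. Ratios and similarity used the 8 counted mRNAs.

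All mRNAs, rRNAs and tested tRNAs were named, up to 10 called genes of the nuclear lists by smallest adjusted p, and the 5 most similar genes. Members and lists were chosen with earlier results of these data known.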

Additional observations from a re-analysis of the deposited data

How the results depend on the processing

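Of 1462 values of log2 change under 12 other settings or without 1 of the 12 libraries, 1364 kept their direction and their side of the threshold, 46 lost a call, 26 gained one and 26 turned sign, and the cause was not tested. mt-Atp8 at the high dose was called in all 24. The members called at the low dose went from 0 to 1 with no filter, DESeq2 or the clock score (0 to 1 without single libraries), at the high dose from 1 to 2 with total counts (1 to 5), for the high against the middle dose from 4 to 2 with total counts or the library index (1 to 4), for the slope from 1 to 0 with limma-voom or the index (0 to 5), and for any difference from 8 to 4 with the index (1 to 9). Nuclear partners called at the low dose ranged from 0 to 2 without single libraries. From the list of 66 nuclear genes, 0 to 1 were called without single libraries at the low and the high dose. At the high dose 1 of them was also called in DESeq2 or with the clock score. Over all reads, the mRNA shares were 0.845%, 0.832%, 0.879% and 1.09% and the rRNA shares 0.368%, 0.285%, 0.326% and 0.305% in vehicle and at the 3 doses. Changes near 0 turned sign. mt-Rnr1 at the low dose (0.0049) was -0.0044 with median-of-ratios scaling and in DESeq2, -0.026 with upper quartiles, -0.014 with TMM lacking the most abundant genes, -0.012 with no filter, -0.028 with a stricter one, -0.0080 with the clock score and -0.11 to 0.12 without single libraries. Without single libraries mt-Nd1 ranged from -0.23 to 0.013 and mt-Nd2 from -0.013 to 0.18 at the low dose, and at the middle dose mt-Rnr1 ranged from -0.063 to 0.17, mt-Nd1 from -0.23 to 0.0085 and mt-Atp8 from -0.18 to 0.0062. mt-Nd5 at the middle dose was 0.013 with total counts (-0.14 to 0.058) and mt-Cytb 0.042 (-0.12 to 0.096), and mt-Co1 at the high dose ranged from -0.034 to 0.13. The tRNAs had few counts, and the cause was not tested. The labels give no replicate numbers to pair samples by, and the numbers used here follow accession order. The index sequences, read from the file names, occurred once in each group and in the order of these numbers, so the fit with the index is also the replicate block, and its counts that differed are those given for the index. Whether the index pairs samples in any other way is not given in the sources used here.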
